A study of Mus musculus with 11 samples.

Results

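Chemokines are small secreted or membrane-bound proteins that guide leukocytes, and 9 genes of this system that act at the vessel wall were followed across glioma and healthy brain. They were chosen as a fixed list of symbols, with earlier results of these data known. The list held the ligands Cxcl12, Cx3cl1, Cxcl9, Cxcl10, Ccl2, Ccl5 and Cxcl16 and the receptors Cxcr4 and Ackr3. All 9 were listed in every library, among 45808 genes. The RNA was purified with tagged ribosomes of endothelial cells, a method known as translating ribosome affinity purification. Adult C57BL/6 mice carried a fusion of eGFP and the ribosomal protein L10a driven by the promoter of VE-cadherin, an endothelial adhesion gene. Brain and tumour, wild type and Eltd1-/- mice alike, carried this transgene, per the labels. The 4 groups were GL261 tumour of Eltd1-/- mice (n = 2), GL261 tumour of wild type mice (n = 3), healthy brain of wild type mice (n = 3) and healthy brain of Eltd1-/- mice (n = 3). GL261 is a mouse glioma cell line, here injected into the brain, and Eltd1, now Adgrl4, is an adhesion receptor of endothelial cells. The protocol names 3 mouse samples for each group, and 2 libraries of Eltd1-/- tumour were analysed here.

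Ligands of this family bind seven-transmembrane receptors on leukocytes, vessels and tumour cells, and those receptors signal mainly through inhibitory G proteins. Cxcl12 is a homeostatic ligand made by endothelium and stroma. It signals through Cxcr4 and is scavenged by the atypical receptor Ackr3. Cx3cl1 (fractalkine) is made as a membrane-bound protein and in brain is best known from neurons, while its receptor Cx3cr1 marks microglia. Cxcl9 and Cxcl10 are induced by interferon-gamma and attract T cells that carry Cxcr3. Ccl2 and Ccl5 recruit monocytes and T cells, and Cxcl16 is a membrane-bound ligand of Cxcr6.

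The values were FPKM, fragment numbers scaled to transcript length and library size, so levels of different genes can be set side by side per length. Read counts and depth were unknown. The FPKM sums ran from 477911 to 641665 per library. Adgrl4 stood at 11.5 and 5.82 FPKM in Eltd1-/- tumours against 45.0, 192 and 27.4 in wild type tumours, and at 21.6, 23.6 and 22.2 FPKM in Eltd1-/- brains against 166, 82.7 and 153 in wild type brains. Within each tissue the Eltd1-/- and wild type libraries did not overlap, and the Eltd1-/- values were lower. Among wild type tumours, replicates 2 and 3 differed from the rest. Replicate 2 listed 8978 genes above 0, against 11782 to 15433 in the other libraries, and listed 8 of the 9 chemokine genes at 0. Replicate 3 carried the most neuronal RNA of the tumours, with 10 neuron markers summing to 3029 FPKM against 102 to 1493 FPKM in the other tumours. An exact 0 in these files can be a failed estimate, since 4 of 13 mitochondrial mRNAs were at 0 in every library, so single values are given wherever a gene was listed at 0.

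Healthy brain held a pair of abundant chemokine transcripts and tumour held a broader set. In brain Cxcl12 and Cx3cl1 stood at 78.1 FPKM or more in all 6 libraries, above 90.0% to 95.1% of the tested genes. The other members did not exceed 16.2 FPKM there. In tumour Cxcl10 reached the highest level of any member, 55.0 FPKM, and Cxcl9 and Cxcr4 were listed in 4 of 5 libraries. Between 7 and 9 members were above 0 in the tumour libraries other than wild type replicate 2, which had 1, and between 3 and 5 in the brain libraries. Of all tested genes 7.79% to 12.9% were at 0 in those tumours, 42.7% in wild type tumour replicate 2 and 8.35% to 25.7% in the brains.

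**Figure D1:**
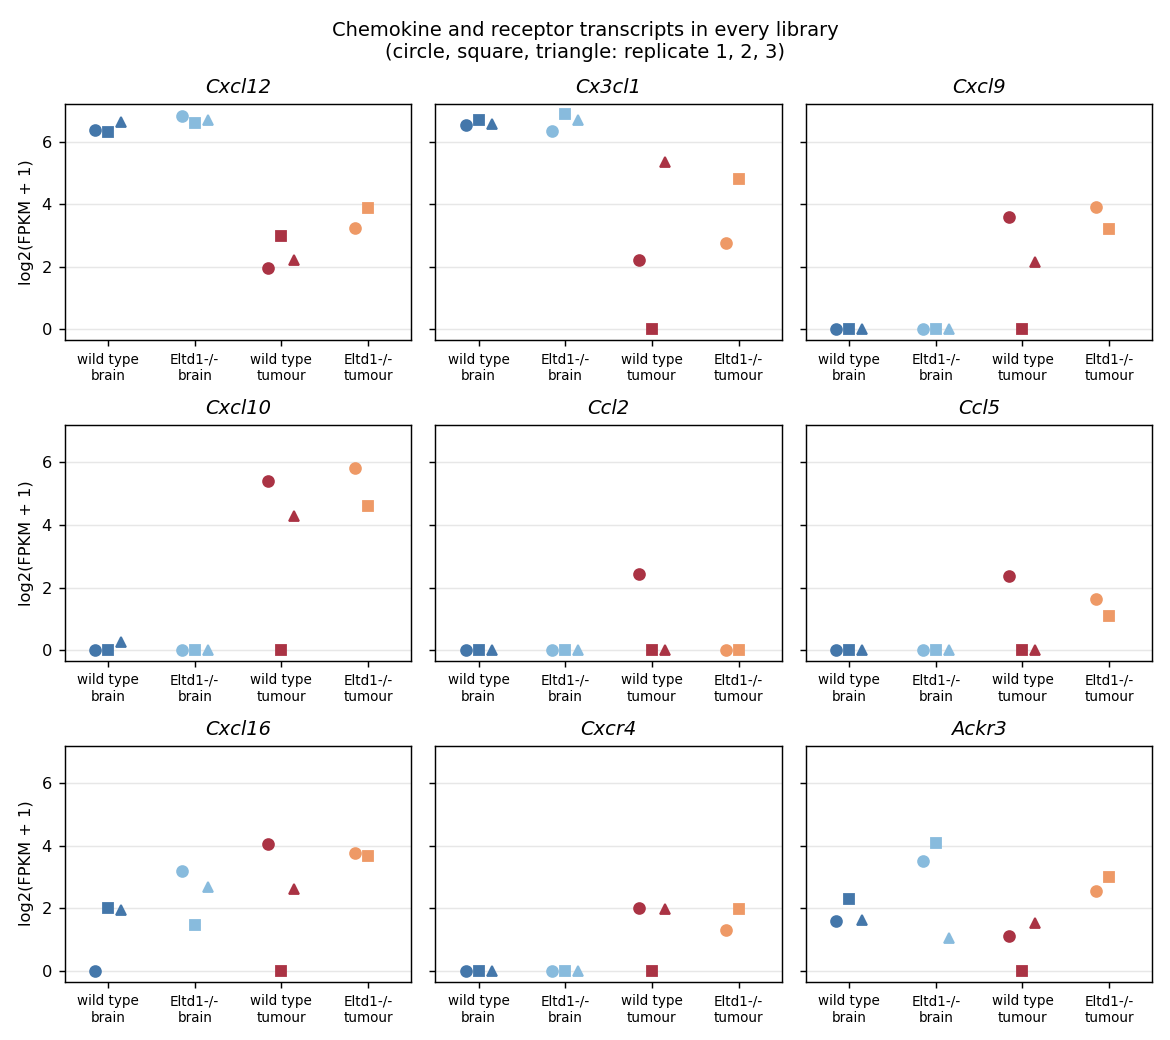
Level of each member as log2(FPKM + 1) in every library, by tissue and genotype, with 1 point per library and the replicate shown by the marker. Cxcl12 and Cx3cl1 are high in all 6 brains, Cxcl9 and Cxcl10 are at or near 0 there, and wild type tumour replicate 2 (square) is at 0 for every member other than Cxcl12.

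Differences were tested with limma on log2(FPKM + 1), over the 15604 genes with at least 1 FPKM in at least 2 libraries, with Benjamini-Hochberg adjustment over all of them and a threshold of 0.05. Of the 9 members 8 entered this fit, and Ccl2 did not. Cxcl9, Cxcl10, Ccl5 and Cxcr4 entered only through their tumour values, which set the direction of their differences. Comparing tumour with brain in wild type mice, 2 of 8 members fell and 0 rose, against 11.7% of all tested genes lower and 7.7% higher in tumour, 19.4% together. At an unadjusted p under 0.05 the count was 5 of 8 members (Cxcl12 and Cx3cl1 lower, Cxcl9, Cxcl10 and Cxcr4 higher), against 34.4% of all tested genes in either direction. In Eltd1-/- mice 1 fell and 2 rose, against 2.29% and 4.79% of all tested genes, 7.08% together. With the tissue difference averaged over both genotypes, 2 members fell and 3 rose, against 17.6% and 12.6% of all tested genes, 30.2% together. The members that rose were Cxcl9 and Cxcl10 in Eltd1-/- mice, joined by Cxcr4 in the average. Having entered only through tumour, they could only come out higher, so their counts are not comparable with the shares of all tested genes. The median difference over all tested genes was -0.26 in wild type and -0.18 in Eltd1-/- mice on the log2 scale.

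Cxcl12 had the clearest difference between tissues. It lies on chromosome 6 (GRCm38 positions 117168535 to 117181368). Its level was 81.0, 78.1 and 98.0 FPKM in wild type brains and 111, 94.8 and 102 FPKM in Eltd1-/- brains. In tumour it was 2.84, 6.93 and 3.63 FPKM in wild type and 8.44 and 13.7 FPKM in Eltd1-/- mice. The highest tumour library lay far below the lowest brain library, and 12.3% of all tested genes likewise had all tumours below all brains. The group means were 85.7 ± 10.8 and 4.47 ± 2.17 FPKM in wild type mice (SD, n = 3 and 3) and 103 ± 8.10 and 11.1 ± 3.72 FPKM in Eltd1-/- mice (SD, n = 3 and 2). The log2 difference was -4.05 in wild type (SE 0.39, adjusted p = 0.000191) and -3.13 in Eltd1-/- mice (SE 0.43, adjusted p = 0.00184), and all tumour libraries were lower. Cxcl12 was also the only member listed above 0 in wild type tumour replicate 2.

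Markers of several cell types moved with Cxcl12. The 12 endothelial markers summed to between 284 and 793 FPKM in tumour and between 1271 and 1870 FPKM in brain. Of these 12, 6 fell in wild type and 2 in Eltd1-/- mice, against 11.7% and 2.29% of all tested genes. The median difference of the endothelial markers was -1.44 and -1.06 on the log2 scale. Fewer endothelial cells, less RNA per cell and a changed share of RNA from other cells cannot be told apart in such samples. With each library expressed relative to its mean endothelial marker level, Cxcl12 still fell, with a log2 difference of -2.51 in wild type (adjusted p = 0.00125) and -1.90 in Eltd1-/- mice (adjusted p = 0.0195). The 10 neuron markers fell further, with a median of -4.21 in wild type and -2.80 in Eltd1-/- mice. In brain they summed to between 4958 and 6587 FPKM, above the endothelial sums, so the libraries also held much neuronal RNA. With each library expressed relative to its mean neuron marker level, the Cxcl12 difference was 0.058 in wild type (adjusted p = 0.958) and -0.71 in Eltd1-/- mice (adjusted p = 0.635). Replicate 3, the wild type tumour with the most neuronal RNA, held 3.63 FPKM of Cxcl12, between the other wild type tumours. These 2 scalings moved the median of all tested genes to 1.27 and 3.84 in wild type mice and to 1.05 and 2.25 in Eltd1-/- mice. Astrocyte markers had a median of -1.55 in wild type mice, with 3 of 6 lower and 1 higher, and of -0.62 in Eltd1-/- mice, with 0 passing. Oligodendrocyte markers had medians of -1.83 and -1.64, with 3 of 6 lower in each genotype. The part that any of these cell types has in the result was not tested further.

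**Figure D2:**
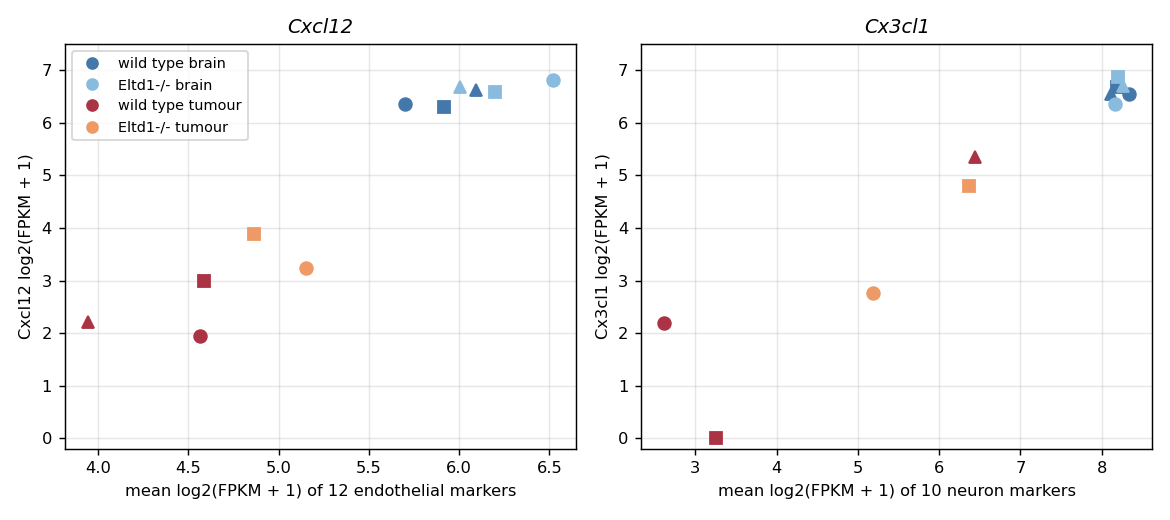
Level of Cxcl12 against the mean of 12 endothelial markers (left) and of Cx3cl1 against the mean of 10 neuron markers (right), all as log2(FPKM + 1), with 1 point per library (circle, square and triangle for replicates 1, 2 and 3). The 5 tumour libraries lie lower on both axes than the 6 brain libraries, and wild type tumour replicate 3 (3029 FPKM of neuron markers) holds the most Cx3cl1 of the tumours.

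Across the 11 libraries the genes whose log2 values followed Cxcl12 most closely, out of 10375 compared, were Bsg with a Pearson r of 0.993, Slc22a8 with 0.987 and Pltp with 0.987. Bsg encodes basigin, a glycoprotein abundant on brain endothelium, Slc22a8 an organic anion transporter and Pltp a phospholipid transfer protein. Bsg stood between 1709 and 2727 FPKM in brain and between 218 and 533 FPKM in tumour. These correlations mainly restate the tissue difference that all 11 points share.

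Cx3cl1 fell in tumour with a much wider spread. It lies on chromosome 8 (GRCm38 positions 94772180 to 94782427). Its level was 92.3, 101 and 93.0 FPKM in wild type brains and 80.6, 116 and 103 FPKM in Eltd1-/- brains. The wild type tumours were listed at 3.60, 0 and 39.7 FPKM and the Eltd1-/- tumours at 5.77 and 26.8 FPKM. All tumours were below all brains, as they were for 12.3% of all tested genes. The tumours differed from each other several-fold within both genotypes. The log2 difference was -4.08 in wild type mice (SE 1.03, adjusted p = 0.0189) and -2.86 in Eltd1-/- mice (SE 1.15, adjusted p = 0.153), so that only the wild type comparison passed. The averaged difference also passed (-3.47, SE 0.77, adjusted p = 0.00662). The wild type call was lost without wild type tumour replicate 1 (adjusted p = 0.0607), on omitting brain replicate 1 (0.0515) or 2 (0.0529) of the wild type, when the pseudocount was 0.1 (0.0550) and when the Eltd1-/- libraries were left out of the fit (0.118).

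Neuron and astrocyte markers were both highest in the tumours with the most Cx3cl1. The neuron marker sum was 102, 432 and 3029 FPKM in wild type tumours 1, 2 and 3 and 730 and 1493 FPKM in Eltd1-/- tumours 1 and 2, against 4958 to 6587 FPKM in brain. The tumours with the 2 highest sums were also the 2 with the most Cx3cl1. The same 2 tumours were highest in astrocyte markers. These summed to 145, 145 and 390 FPKM in wild type tumours 1, 2 and 3 and to 213 and 296 FPKM in Eltd1-/- tumours 1 and 2. Relative to the neuron markers the Cx3cl1 difference was 0.033 in wild type mice (adjusted p = 0.975) and -0.43 in Eltd1-/- mice (adjusted p = 0.769). Relative to the endothelial markers it was -2.54 (adjusted p = 0.0953) and -1.63 (adjusted p = 0.403). The neuron scaling shifted genes in general, with 12793 called higher in tumour and 3 lower in wild type mice. The closest genes across the 11 libraries were Slc4a10, a bicarbonate transporter of neurons, with r of 0.996, Pex5l, a regulator of neuronal pacemaker channels, with 0.996, and Adgrb1, a brain adhesion receptor, with 0.994. Like Cx3cl1, these 3 had a value of 0 in wild type tumour replicate 2. Of 15 expressed genes within 500 kb of Cx3cl1, 2 were at 0 in that library and 0 in each of the other tumours. The part that any cell type has in the Cx3cl1 values was not tested.

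Cx3cr1, the receptor of Cx3cl1, was named after its values had been seen, for its pairing with the ligand. Its level was 8.14, 21.3 and 10.6 FPKM in wild type tumours and 11.7 and 11.1 FPKM in Eltd1-/- tumours. In brain it was 9.62, 7.95 and 6.35 FPKM in wild type and 4.15, 4.58 and 8.75 FPKM in Eltd1-/- mice. The log2 difference of 0.58 in wild type (SE 0.53, adjusted p = 0.476) and 0.92 in Eltd1-/- mice (SE 0.60, adjusted p = 0.372) did not pass.

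Cxcl9 and Cxcl10, the interferon-gamma-induced ligands, were tumour transcripts. They are neighbours on chromosome 5, Cxcl9 at positions 92321331 to 92328079 and Cxcl10 at positions 92346638 to 92348889 of GRCm38. Cxcl9 was listed at 10.9, 0 and 3.45 FPKM in wild type tumours, at 14.1 and 8.13 FPKM in Eltd1-/- tumours and at 0 in all 6 brains. Cxcl10 was listed at 41.5, 0 and 18.5 FPKM in wild type tumours, at 55.0 and 23.2 FPKM in Eltd1-/- tumours and at 0 in the brains other than wild type replicate 3, with 0.20 FPKM. In every tumour where they were listed, Cxcl10 was the more abundant per length. Against values of 0 a fitted difference depends on the pseudocount of 1 and is no fold change. On that scale Cxcl9 rose by 3.56 (SE 0.86, adjusted p = 0.0300) and Cxcl10 by 5.20 (SE 1.24, adjusted p = 0.0290) in Eltd1-/- mice. In wild type mice the differences of 1.91 (SE 0.77, adjusted p = 0.101) and 3.14 (SE 1.11, adjusted p = 0.0680) did not pass.

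The wild type comparison depended on the libraries and the scaling. Without wild type tumour replicate 2, Cxcl9 passed with 2.87 (adjusted p = 0.0100) and Cxcl10 with 4.76 (adjusted p = 0.00130). Relative to the endothelial markers, where the median of all tested genes was 1.27, they passed with 3.45 (adjusted p = 0.00631) and 4.68 (adjusted p = 0.00769). The Eltd1-/- calls of both genes were lost without any 1 of the 5 Eltd1-/- libraries and with a pseudocount of 0.1 (adjusted p = 0.0552 for Cxcl9 and 0.0561 for Cxcl10), and that of Cxcl10 also without the filter on low values (0.0509). Averaged over both genotypes, Cxcl9 (2.73, SE 0.57, adjusted p = 0.00502) and Cxcl10 (4.17, SE 0.83, adjusted p = 0.00387) passed. Every alternative run kept both calls. Both genes entered the fit only through their tumour values, so the calls and their stability are a description. Whether the rise differed between genotypes was tested directly. The difference of the differences was 1.64 for Cxcl9 (95% interval -0.87 to 4.16) and 2.06 for Cxcl10 (95% interval -1.58 to 5.70), and neither passed (adjusted p = 1.00 for both).

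**Figure D3:**
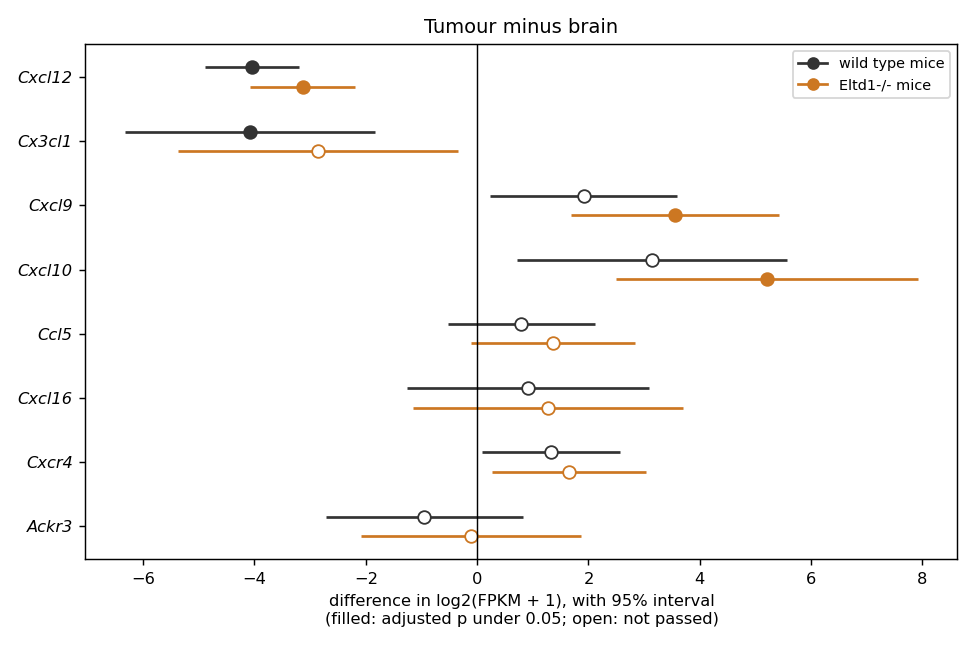
Difference between tumour and brain in log2(FPKM + 1) for the 8 members that entered the fit, in wild type and Eltd1-/- mice, with 95% intervals. Cxcl12 lies below 0 in both genotypes (-4.05 and -3.13), Cx3cl1 passes in wild type mice, and Cxcl9 and Cxcl10 pass in Eltd1-/- mice.

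The promoter sequences of the neighbouring pair are shown because both genes rose from a level at or near 0, and that of Cxcl12 for contrast. Each line gives the 250 bases before the transcription start, 5′ to 3′ on the gene's strand, from RefSeq on GRCm38.p6: minus strand, chr5:92348890-92349139 for Cxcl10 and chr5:92328080-92328329 for Cxcl9, and plus strand, chr6:117168285-117168534 for Cxcl12. Capitals mark motif matches in Cxcl10 and CG dinucleotides in Cxcl12.
Cxcl10: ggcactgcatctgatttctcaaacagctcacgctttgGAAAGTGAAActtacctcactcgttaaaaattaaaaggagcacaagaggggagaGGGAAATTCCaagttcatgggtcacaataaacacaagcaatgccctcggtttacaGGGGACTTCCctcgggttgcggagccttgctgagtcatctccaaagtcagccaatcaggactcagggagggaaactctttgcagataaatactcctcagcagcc
Cxcl9: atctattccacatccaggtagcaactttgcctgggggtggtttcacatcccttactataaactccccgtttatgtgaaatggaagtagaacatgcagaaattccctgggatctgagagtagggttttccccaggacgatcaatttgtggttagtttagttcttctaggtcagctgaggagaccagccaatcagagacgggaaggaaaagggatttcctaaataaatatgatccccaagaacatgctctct
Cxcl12: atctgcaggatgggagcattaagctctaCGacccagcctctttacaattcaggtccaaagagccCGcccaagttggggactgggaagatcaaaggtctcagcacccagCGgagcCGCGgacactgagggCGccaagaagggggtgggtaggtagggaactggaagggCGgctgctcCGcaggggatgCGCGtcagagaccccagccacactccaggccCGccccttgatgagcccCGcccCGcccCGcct
The motifs searched on both strands were an interferon-stimulated response element (GAAA and GAAA with any 2 bases between, in 2.98% of 32851 promoters of the same length), a gamma-activated site (TTCNNNGAA, 7.02%), an NF-kB site (GGG and TTCC with any 3 bases between, 4.65%) and a hypoxia response element (ACGTG, 16.6%). Cxcl10 held 1 interferon-stimulated element, GAAAGTGAAA, at -213 to -204 from the start, and 2 NF-kB matches, GGGAAATTCC at -159 to -150 and GGGGACTTCC at -104 to -95, with no overlap among them. Cxcl9 and Cxcl12 held 0 matches of these letters in this window. The Cxcl12 stretch held 14 CG dinucleotides and 64.4% G and C, against medians of 6 and 52.4% over all promoters, while Cxcl9 held 3 and 44.4%. Cxcl10 held 5 and 48.0%, Cx3cl1 14 and 64.8%, and Ackr3 7 and 54.0%. Cxcr4, like Cxcl9 at 0 in all brains, held 19 and 61.2%, so these values did not separate tumour from brain transcripts. A match is a description of letters and not a measured site, and the motifs were chosen after the sequences had been seen.

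Interferon-gamma targets moved with this pair. Of 10 listed targets 9 rose and 0 fell in wild type mice, and 9 rose and 0 fell in Eltd1-/- mice, with B2m as the exception in both. Their median difference was 3.64 and 4.14 on the log2 scale, against -0.26 and -0.18 over all tested genes. The list of targets was chosen with earlier results of these data known, so its counts and medians are a description. Irf1, an interferon-induced transcription factor, stood at 538, 968 and 324 FPKM in wild type tumours and at 69.2, 26.3 and 99.1 FPKM in wild type brains. Gbp2, an interferon-induced GTPase, stood at 922, 655 and 504 FPKM against 18.3, 40.9 and 29.5 FPKM. Tumour replicate 2, with Cxcl9 and Cxcl10 at 0, thus held the highest Irf1 of the wild type tumours. Of 7 tested NF-kB targets 1 rose and 0 fell in each genotype. Across all tested genes 7.7% rose in wild type and 4.79% in Eltd1-/- mice.

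Microglia and macrophage markers were higher in the same libraries. The 14 markers summed to between 160 and 464 FPKM in tumour and between 41.9 and 67.9 FPKM in brain. In wild type mice 5 rose and in Eltd1-/- mice 3, against 7.7% and 4.79% of all tested genes. Some markers of this list entered the fit only through their tumour values, so its counts are not directly comparable with those shares. Of their defining markers, Aif1 was listed at 7.54, 0 and 4.23 FPKM in wild type tumours, at 14.3 and 9.72 FPKM in Eltd1-/- tumours and at 0 in the brains other than Eltd1-/- replicate 3, with 2.27 FPKM. Csf1r stood between 19.2 and 35.6 FPKM in tumour and between 7.12 and 14.7 FPKM in brain. Itgam stood between 8.91 and 26.5 FPKM in tumour and between 2.26 and 19.8 FPKM in brain. These 3 genes did not pass in either genotype alone, and all 3 did averaged over genotypes (adjusted p = 0.00989 for Aif1, 0.00620 for Csf1r and 0.0205 for Itgam). Aif1 entered the fit only through its tumour values, so its call is a description. The 10 lymphocyte markers summed to between 21.6 and 37.6 FPKM in tumour and between 3.66 and 27.0 FPKM in brain. Of the T cell receptor subunits, Cd3e was at 0 in all 11 libraries, Cd3d did not exceed 0.34 FPKM, and Cd3g was listed at 7.42 FPKM in Eltd1-/- tumour replicate 2, at 1.55 FPKM in Eltd1-/- brain replicate 3 and at 0 elsewhere. Of the 4 tested lymphocyte markers 1 rose in each genotype, the T cell kinase gene Lck. It was listed at 19.3, 16.6 and 18.7 FPKM in wild type tumours and 24.5 and 9.04 FPKM in Eltd1-/- tumours, and at 1.55 FPKM or less in brain. Its log2 difference was 3.73 in wild type (SE 0.60, adjusted p = 0.00245) and 4.00 in Eltd1-/- mice (SE 0.67, adjusted p = 0.00520). Lck entered the fit only through its tumour values, so these calls are a description. Cd4, from the same list, did not pass. Its log2 difference was 0.27 in wild type (SE 0.77, adjusted p = 0.841) and -2.51 in Eltd1-/- mice (SE 0.86, adjusted p = 0.102). The Eltd1-/- tumours, at 2.80 and 1.40 FPKM of Cd4, lay below all Eltd1-/- brains, as they did for 28.6% of all tested genes. The wild type groups overlapped. Cd4 stood at 26.8 FPKM in wild type brain replicate 1, the brain with the lymphocyte sum of 27.0 FPKM. Cd3g, Lck and Cd4 were named after their values had been seen. The 6 proliferation markers summed to between 567 and 1027 FPKM in tumour and between 1.43 and 22.6 FPKM in brain, and all 6 rose in each genotype. Mki67 and others of the 6 entered the fit only through their tumour values, so that count is a description. What these cells contribute to the Cxcl9 and Cxcl10 values was not tested.

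The genes most like Cxcl9 over the 11 libraries were the histone Hist1h2bm with r of 0.997, the cell cycle protein Cks2 with 0.997 and Ifi30, an interferon-gamma-inducible reductase, with 0.993. For Cxcl10 they were Hist1h2bm with 0.997, the cell cycle gene Cdca3 with 0.997 and Ifi30 with 0.996. All 4 of these genes were at 0 in the 6 brains and in wild type tumour replicate 2, the pattern that the correlation follows. Histone genes are near-identical copies, and their single values are uncertain.

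Cxcr3, the receptor of Cxcl9 and Cxcl10, was listed at 1.11 FPKM in Eltd1-/- tumour replicate 1 and at 0 in the other libraries. Cxcl11, the third Cxcr3 ligand, was listed at 22.5, 0 and 13.6 FPKM in wild type tumours, at 16.8 and 22.8 FPKM in Eltd1-/- tumours and between 0 and 12.1 FPKM in brain. Its difference of 2.82 in Eltd1-/- mice (SE 1.45, adjusted p = 0.256) and 1.57 in wild type mice (SE 1.30, adjusted p = 0.428) did not pass. Both genes were named after their values had been seen, as partners of Cxcl9 and Cxcl10.

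Ccl2, Ccl5 and Cxcl16, all on chromosome 11, did not pass in either genotype. Ccl2, the main monocyte chemokine, was listed at 4.40 FPKM in wild type tumour replicate 1 and at 0 in the other 10 libraries, too few for the fit. Ccl5, a T cell and monocyte attractant, was listed at 4.20, 0 and 0 FPKM in wild type tumours, at 2.09 and 1.15 FPKM in Eltd1-/- tumours and at 0 in all brains. Its adjusted p was 0.386 in wild type and 0.235 in Eltd1-/- mice. Wild type tumour replicate 1 thus held the most Ccl2 and Ccl5.

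Cxcl16, the ligand of Cxcr6, was present in both tissues. It was listed at 15.8, 0 and 5.10 FPKM in wild type tumours and 12.7 and 11.8 FPKM in Eltd1-/- tumours. In brain it was 0, 3.02 and 2.87 FPKM in wild type and 8.27, 1.78 and 5.40 FPKM in Eltd1-/- mice. The Eltd1-/- tumours lay above the Eltd1-/- brains, as they did for 22% of all tested genes, while the wild type groups overlapped. The log2 differences of 0.91 (SE 0.99, adjusted p = 0.555) and 1.27 (SE 1.11, adjusted p = 0.528) did not pass. Cxcr6, named after its values were seen, was listed at 0.92 FPKM in Eltd1-/- tumour replicate 2 and at 0 elsewhere.

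Both receptors were low. Cxcr4, the signalling receptor of Cxcl12, lies on chromosome 1 and was listed at 3.01, 0 and 2.93 FPKM in wild type tumours, at 1.50 and 2.96 FPKM in Eltd1-/- tumours and at 0 in all 6 brains. Its difference passed averaged over genotypes (1.49, SE 0.42, adjusted p = 0.0209), but in neither genotype alone, at 1.33 in wild type (SE 0.56, adjusted p = 0.120) and 1.65 in Eltd1-/- mice (SE 0.63, adjusted p = 0.134). The averaged call was lost without Eltd1-/- tumour replicate 2 (adjusted p = 0.0877), and without wild type tumour replicate 2 the wild type difference passed (1.99, adjusted p = 0.0164). Cxcr4 entered the fit only through its tumour values, so these calls are a description. The genes most like Cxcr4 were the histones Hist1h3a (r of 0.986) and Hist1h3h (0.971) and Cdca3 (0.970), all at 0 in the 6 brains.

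Ackr3, also on chromosome 1, is the scavenger of Cxcl12. It was listed at 1.20, 0 and 1.92 FPKM in wild type tumours and at 2.06, 3.92 and 2.08 FPKM in wild type brains, where the groups did not overlap. It was listed at 4.87 and 7.12 FPKM in Eltd1-/- tumours and at 10.6, 16.2 and 1.06 FPKM in Eltd1-/- brains, which did overlap. The tissue difference was -0.95 in wild type (SE 0.81, adjusted p = 0.441) and -0.11 in Eltd1-/- mice (SE 0.90, adjusted p = 0.966). Of all tested genes 19.8% had wild type tumours entirely below wild type brains. The gene most like Ackr3 was Tmem205 with r of 0.862, a weaker likeness than the leading gene of any other tested member.

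Eltd1-/- and wild type mice were compared within each tissue, and 0 of the 8 tested members passed in tumour, in brain or averaged over tissues. At an unadjusted p under 0.05 the members were Cxcl12 in tumour, 0 in brain, and Cxcl12 and Ackr3 averaged over tissues. Across all tested genes 3 passed in tumour (0.0192%), with 485 (3.11%) at an unadjusted p under 0.05. In brain 1 passed (0.00641%), with 679 (4.35%) at an unadjusted p under 0.05. Averaged over tissues 1 passed (0.00641%), with 529 (3.39%) at an unadjusted p under 0.05. In tumour the Eltd1-/- libraries lay above all wild type libraries for Cxcl12 (8.44 and 13.7 against 2.84, 6.93 and 3.63 FPKM) and for Ackr3 (4.87 and 7.12 against 1.20, 0 and 1.92 FPKM). Such a separation upwards occurred in 10.8% of all tested genes. The log2 difference was 1.18 for Cxcl12 (95% interval 0.24 to 2.12, adjusted p = 1) and 1.89 for Ackr3 (95% interval -0.09 to 3.87, adjusted p = 1). Relative to the endothelial markers, whose median difference between these groups was 0.69, that of Cxcl12 was 0.54, and relative to the neuron markers it was -0.50. The other 6 members overlapped between genotypes in tumour.

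In brain all 8 members overlapped between genotypes. The largest differences were 1.13 for Cxcl16 (95% interval -1.04 to 3.31) and 1.05 for Ackr3 (95% interval -0.72 to 2.82). For Cxcl12 the difference was 0.26 (95% interval -0.58 to 1.10) and for Cx3cl1 0.05 (95% interval -2.20 to 2.30). The genotype effect on Cxcl12 did not pass a test of being unequal in tumour and brain (0.92, 95% interval -0.35 to 2.18, adjusted p = 1.00), nor did that of any other tested member.

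**Figure D4:**
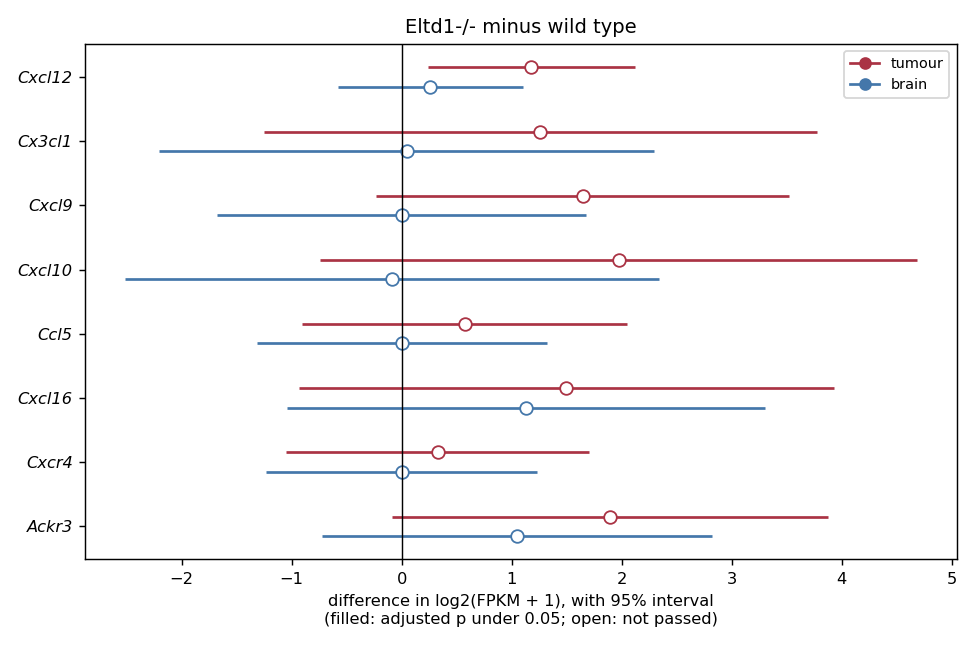
Difference between Eltd1-/- and wild type mice in log2(FPKM + 1) for the 8 members in the fit, in tumour and in brain, with 95% intervals. All points are open because none passed, and the tumour interval of Cxcl12 runs from 0.24 to 2.12.

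Of 34 other ligands 9 entered the fit, and of 22 other receptors 7 did. In wild type mice 1 ligand fell, Cxcl14, a chemokine of skin and brain, from 12.9, 13.0 and 7.24 FPKM in brain to 0.51, 0 and 3.15 FPKM in tumour (-2.67, SE 0.63, adjusted p = 0.0143), and 0 receptors passed. Across all tested genes 19.4% were called in wild type mice. In Eltd1-/- mice 0 of either list passed, against the 7.08% of all genes called. Averaged over genotypes Cxcl14 (-2.29, SE 0.47, adjusted p = 0.00453) and Ccl27a (-2.47, SE 0.74, adjusted p = 0.0267) fell. Ccr2, the monocyte receptor of Ccl2, was listed at 1.24 and 1.63 FPKM in Eltd1-/- tumours, at 0.36, 0 and 0.64 FPKM in wild type tumours and at 0 in all brains. Its averaged difference was 0.83 (SE 0.29, adjusted p = 0.0457), but it entered the fit only through the Eltd1-/- tumours, so that the call is a description. Ccl27a has near-identical genomic copies and its value is uncertain.

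**Figure D5:**
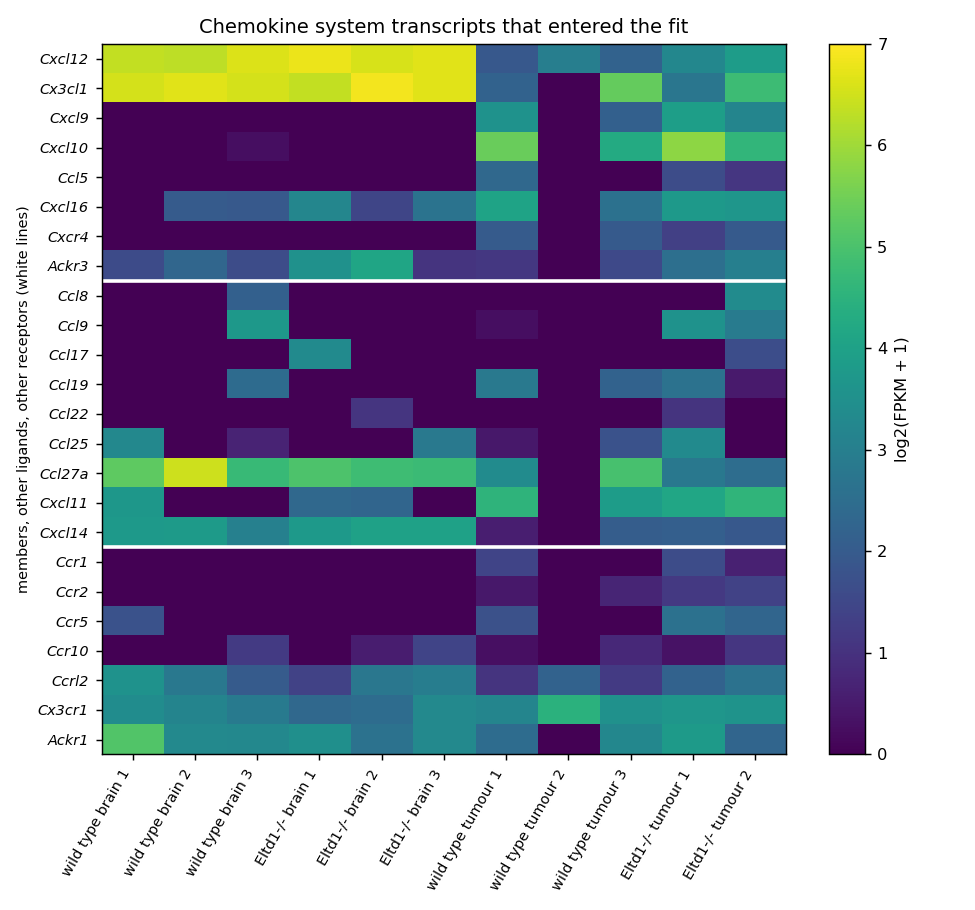
Heatmap of log2(FPKM + 1) for the 8 members, 9 other ligands and 7 other receptors that entered the fit (rows) in the 11 libraries (columns), with white lines between the 3 sets. Cxcl12 and Cx3cl1 are the brightest rows in brain, and most other ligands are at 0 in several libraries.

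Of 12 partners in chemokine processing and signalling, 4 fell and 0 rose in wild type mice, against 11.7% and 7.7% of all tested genes. Their median was -0.94 against -0.26 over all tested genes. The 4 were Gnai2 (-1.27, SE 0.25, adjusted p = 0.00624) and Gnai1 (-4.02, SE 0.86, adjusted p = 0.00976), inhibitory G protein subunits, Adrbk1 (-1.81, SE 0.38, adjusted p = 0.00868), a receptor kinase, and Arrb2 (-1.45, SE 0.39, adjusted p = 0.0238), a beta-arrestin. Gnai2, the most abundant of them, stood at 262, 311 and 213 FPKM in wild type tumours and 667, 627 and 590 FPKM in wild type brains. In Eltd1-/- mice Gnai2 alone fell (-1.17, SE 0.28, adjusted p = 0.0276), against 2.29% of all tested genes. The proteases Adam10 and Adam17, which cleave Cx3cl1 and Cxcl16 from the membrane, did not pass in either genotype and were named after their values had been seen. Averaged over genotypes 6 of 12 partners fell, against 17.6% of all tested genes. Between genotypes 0 partners, ligands or receptors passed in either tissue.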

How the data were processed

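Each of 11 libraries came as 1 table of FPKM values per gene, deposited by the authors, per the file headers. The submitters' processing notes name TopHat2 2.1.1, Cufflinks 2.2.1 and the build GRCm38; for the role of each tool, the annotation and the use of strand nothing is given in the sources used here. Each table listed 46073 entries. Numbered entries of 209 symbols were summed, which left 45808 genes, and 0 members were affected. Depth is unknown: between 0.344% and 8.00% of low values per pair of libraries fell on 1 common ratio (within 0.1%), so whole reads were not recovered.

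Limma 3.58.1 (R 4.3.3) fitted 4 group means to log2(FPKM + 1) with a variance trend, for genes of at least 1 FPKM in at least 2 libraries. Tests were two-sided with Benjamini-Hochberg adjustment within each contrast. Contrasts between tissues and between genotypes share libraries. Replicates are separate mouse samples, numbered in accession order, and pair nothing.

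The members and gene lists were chosen with earlier results of these data known. All members were named, with up to 4 passing genes per direction of the chemokine ligand, receptor and partner lists by smallest p, the first 3 symbols of other lists (single values of 1 list member are not reported here) and the 3 most correlated genes (Pearson r, mean of at least 5 FPKM). Endothelial, neuron, microglia, lymphocyte and proliferation lists are described; mural, fibroblast, astrocyte, oligodendrocyte, glioma and erythrocyte lists are summarised in the closing section. Positions and promoters come from RefSeq tables of GRCm38.p6, which held promoters of 6 of the 9 members.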

Additional observations from a re-analysis of the deposited data

How the results depend on the processing

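Cxcl12 passed in both genotypes and in their average under every setting run, except relative to neuron markers, a setting chosen after seeing the data. In wild type mice the number of members called, 2 in the reported fit, was 1 with a pseudocount of 0.1 or in a fit of the groups compared, 5 after quantile normalization or relative to endothelial markers, 6 with library weights, relative to neuron markers or without wild type tumour replicates 2 and 3 together, and between 1 and 5 when each library was left out in turn. In Eltd1-/- mice the count, 3 in the reported fit, was 1 with a pseudocount of 0.1, 5 relative to endothelial markers or with weights, 6 in a fit of the groups compared or without those 2 tumours, and between 1 and 5 with each library left out. The averaged count stayed between 4 and 5 with each library left out, and the genotype counts stayed at 0 under every setting. Calls over all tested genes moved with these settings too. In wild type mice they went from 3024 to 4937 with weights, 5680 relative to endothelial markers and 12796 relative to neuron markers. In Eltd1-/- mice they went from 1105 to 3097 relative to endothelial markers, 4126 with weights and 2803 in a fit of the groups compared. A higher member count there is thus no stronger result for the members. The cause was not tested, except that relative to either marker list the median of all genes itself moved up.

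Signs that turned belonged to values near 0 or to those scalings. In wild type mice they were Cxcl16 without wild type tumour replicate 1 (-0.016, with a range up to 2.02 over the libraries left out), Ackr3 relative to endothelial (0.59) and neuron markers (3.16), and Cxcl12 (0.058) and Cx3cl1 (0.033) relative to neuron markers. In Eltd1-/- mice Ackr3 turned with a pseudocount of 0.1 (0.027), with weights (0.21) and relative to endothelial (1.12) and neuron markers (2.32), and ran from -1.03 to 0.50 with each library left out. Averaged over genotypes Ackr3 was 0.86 and 2.74 relative to those lists. For genotype, Cxcl12 turned relative to endothelial markers in brain (-0.076) and relative to neuron markers in tumour (-0.50), over both tissues (-0.12) and in the difference of effects (-0.76). Over all genes the wild type count of 3024 lay between 614 in a fit of the groups compared and 5680 relative to endothelial markers, and at 12796 relative to neuron markers; the Eltd1-/- count of 1105 lay between 147 and 4126. Quantile normalization moved the share of wild type calls that were higher in tumour from 39.7% to 52.2%, and the median of all genes from -0.26 to 0.01. No paired analysis was possible because the labels number no replicates within groups. Where 1 Eltd1-/- tumour remained, its spread was taken from the other groups.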

Other observations

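Markers of other cells in the same libraries are given as values. In wild type mice 1 of 7 mural, 1 of 5 fibroblast, 1 of 6 astrocyte and 3 of 8 neural progenitor and glioma markers were higher in tumour, and 3 astrocyte, 3 of 6 oligodendrocyte and 2 glioma markers were lower. In Eltd1-/- mice 1 of 7 mural, 1 of 5 fibroblast and 3 of 8 glioma markers were higher and 3 of 6 oligodendrocyte markers lower. Of 3 tested erythrocyte markers 0 passed in either genotype. Across all tested genes 7.7% were higher and 11.7% lower in wild type mice, and 4.79% and 2.29% in Eltd1-/- mice. The fibroblast marker called higher entered the fit only through its tumour values. Mural markers summed to between 18.8 and 75.1 FPKM in tumour and between 6.94 and 30.6 FPKM in brain.

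Cxcl1, a neutrophil chemokine that did not enter the fit, was listed at 26.0 FPKM in Eltd1-/- brain replicate 2 and at 0 in the other 10 libraries. Ccl11, which did not enter the fit either, was listed at 17.7 FPKM in wild type tumour replicate 2, the library with 8 of the 9 members at 0. Both were chosen after their values had been seen.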
